A study of Mus musculus with 2 samples.

Results

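The genes described here encode the FOS, JUN and partner bZIP proteins that form the transcription factor AP-1. They are Fos, Fosb, Fosl1, Fosl2, Jun, Junb, Jund, Atf3, Batf and Maff, chosen by name, and they are 10 of the 21887 protein-coding genes measured. The assay was ATAC-seq, which marks accessible DNA by cutting and tagging it with Tn5 transposase, on sorted liver nuclei labelled as hepatic stellate cells, which are liver pericytes that store vitamin A. The mice were of strain C57BL6/JBomTac, healthy and fed chow, and every sample carried an Lrat-cre transgene together with an mCherry-Rpl10a allele at ROSA26, the tag by which nuclei were sorted. Replicates A and B, 2 samples of 1 group, are all there is, and nothing was set against a second condition. The sources used here give neither the age of the mice nor whether A and B are separate animals, and differences between them may be technical.

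AP-1 is a dimer of bZIP proteins, which grip DNA through a basic region and pair through a leucine zipper. JUN proteins pair with themselves, with FOS proteins or with ATF and BATF proteins, whereas FOS proteins need a partner, and MAFF is a small MAF protein that lacks a transactivation domain. Many of these genes are immediate early genes, transcribed within minutes of a stimulus from enhancers and promoters that are often open beforehand. In cultured and injured stellate cells AP-1 is known for its part in activation and matrix gene expression.

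Peaks come from the authors' list for each replicate, with 36577 entries in A and 28794 in B. Fold enrichment is the ratio deposited with each peak, over the peak caller's local background, and a percentile ranks a peak within its own list, with 100 the highest. A replicated peak is an entry of A sharing 1 bp or more with an entry of B, and a locus runs from 20 kb before to 20 kb after the gene body. The number of reads behind a peak is unknown, because the lists hold no counts. All 10 stellate markers looked up, among them Lrat and Reln, had a replicated peak at their start. For the 1 of them with no annotated start here, either gene end was used. By the same rule, none of the 6 hepatocyte, 6 endothelial, 6 Kupffer and myeloid and 6 cholangiocyte markers had one. Anywhere in the locus, replicated peaks were found at 1 of 6 hepatocyte, 3 of 6 endothelial, 1 of 6 Kupffer and myeloid and 1 of 6 cholangiocyte markers. The peaks of B carry names that begin with "Oil", unlike those of A, and the labels, which give 1 diet for both, were followed. What the name stands for is unknown here, and a treatment that differed between A and B could not be told apart from replicate.

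The promoter windows below, from 250 bases before to 50 after an annotated start, are shown because the first 4 are those that replicated peaks cover over most of their length and the last holds a full cyclic AMP response element (CRE) with no peak. Capitals mark the letters TGACGTCA (CRE), TGACATCA (a variant of the CRE), TGACTCA (the AP-1 site, or TRE) or TGACG (the core of the CRE), on either strand. The sequences are RefSeq's for GRCm38.p6, the assembly that mm10 names, and are written in the direction of transcription.
Fos, chr12:85473640-85473939, plus strand: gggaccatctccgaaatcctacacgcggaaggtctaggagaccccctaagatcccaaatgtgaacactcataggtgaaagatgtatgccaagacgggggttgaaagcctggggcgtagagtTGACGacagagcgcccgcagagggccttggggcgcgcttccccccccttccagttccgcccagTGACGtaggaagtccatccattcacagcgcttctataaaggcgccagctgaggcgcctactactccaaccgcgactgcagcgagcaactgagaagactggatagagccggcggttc
Jun, chr4:95052173-95052472, minus strand: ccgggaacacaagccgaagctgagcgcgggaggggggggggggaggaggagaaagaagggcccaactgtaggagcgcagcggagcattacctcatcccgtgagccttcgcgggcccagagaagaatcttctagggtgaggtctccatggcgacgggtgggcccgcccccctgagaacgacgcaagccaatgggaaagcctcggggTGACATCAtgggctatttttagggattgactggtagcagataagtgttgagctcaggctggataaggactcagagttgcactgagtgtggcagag
Junb, chr8:84978699-84978998, minus strand: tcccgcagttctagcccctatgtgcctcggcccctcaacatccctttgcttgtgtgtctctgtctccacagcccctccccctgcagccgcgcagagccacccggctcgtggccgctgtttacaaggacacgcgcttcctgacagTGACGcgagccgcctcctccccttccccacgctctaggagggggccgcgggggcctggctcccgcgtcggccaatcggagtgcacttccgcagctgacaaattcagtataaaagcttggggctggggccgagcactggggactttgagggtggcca
Atf3, chr1:191183284-191183583, minus strand: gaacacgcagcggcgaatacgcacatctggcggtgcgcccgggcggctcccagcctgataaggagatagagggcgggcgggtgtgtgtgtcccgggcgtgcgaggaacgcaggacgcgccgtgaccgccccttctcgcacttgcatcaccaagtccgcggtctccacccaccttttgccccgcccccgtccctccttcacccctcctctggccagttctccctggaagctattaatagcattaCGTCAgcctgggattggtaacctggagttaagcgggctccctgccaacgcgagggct
Maff, chr15:79347270-79347569, plus strand: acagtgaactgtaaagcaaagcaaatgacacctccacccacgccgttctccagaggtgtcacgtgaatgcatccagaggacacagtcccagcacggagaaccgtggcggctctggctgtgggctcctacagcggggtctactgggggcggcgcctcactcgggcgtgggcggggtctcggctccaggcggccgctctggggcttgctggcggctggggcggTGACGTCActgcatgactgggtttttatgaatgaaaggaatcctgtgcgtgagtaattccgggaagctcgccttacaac

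Chromatin was open around every AP-1 gene. The 10 loci held 50 entries in A, 43 in B and 41 replicated peaks, and each locus had at least 2 of these. Among all protein-coding genes 64.6% had a replicated peak in the locus, and among the 12520 that are no longer than Batf, the longest member at 22368 bp, 57.1% did. Member loci held 4.1 ± 2.18 replicated peaks (mean and SD over 10 genes; median 3.5), where the 12520 genes held a mean of 1.27 (median 1). Junb led with 8, followed by Fosb with 7 and Maff with 6, while Fosl2, Jun and Batf had 2 each. At least 6 replicated peaks were found at 1.48% of those 12520 genes and at least 8 at 0.152%.

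**Figure D1:**
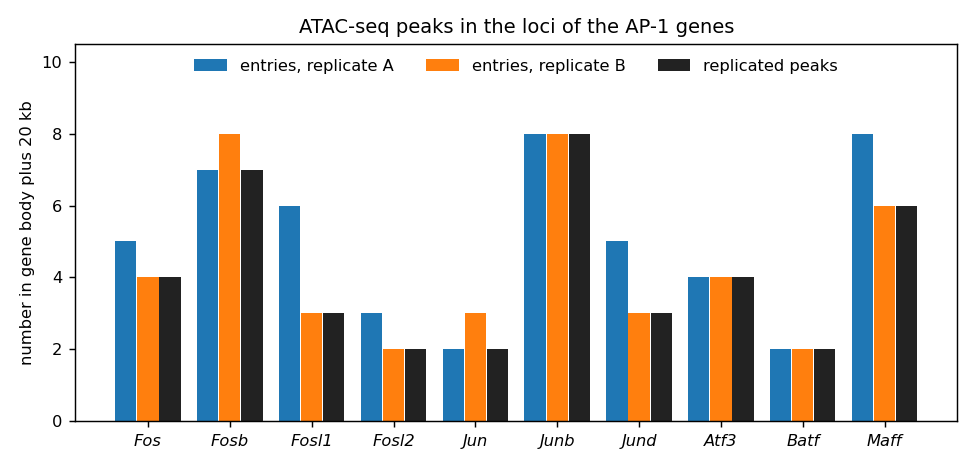
Bars give, for each AP-1 gene, the number of entries of replicate A, of replicate B and of replicated peaks in the gene body and its 20 kb flanks. Junb, Fosb and Maff had 8, 7 and 6 replicated peaks, and the other 7 genes had 2 to 4.

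Most entries of the AP-1 loci were found in both replicates. Of the 50 entries of A, 41 were replicated (82%, 95% Wilson interval 69.2 to 90.2), against 64.1% of the 36527 entries of A outside these loci (63.6 to 64.6). From the side of B, 41 of 43 were replicated (95.3%, 84.5 to 98.7), against 81.7% of the 28751 other entries (81.3 to 82.2). These intervals cover counting error only, and entries of 1 locus are not independent. Entries of A alone were found at Fosl1 (3), Jund (2), Maff (2), Fos (1) and Fosl2 (1), and entries of B alone at Fosb (1) and Jun (1).

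Open sites lay both at the genes' own starts and over 1 kb from any protein-coding gene end. Within 1 kb of an annotated start of their own gene lay 10 of the 41 replicated peaks, at 7 of the 10 members: Fos, Fosb, Fosl2, Jun, Junb, Jund and Atf3. The same held for 43.1% of all protein-coding genes, for 36.7% of the 12520 no longer than Batf and for 44.2% of the 17492 genes with an annotated start here. The remaining peaks comprised 6 that overlap a member's own body and 1 just past the other end of Junb. A further 12 lay between protein-coding genes, 7 in the body of another gene and 5 within 1 kb of an end of another gene. Of the 6, 1 reached over the far end of Jund and also lay within 1 kb of an end of Iqcn. Over 1 kb from both ends of every protein-coding gene lay 24 peaks, at 9 of 10 members, all but Jun, where the share of all protein-coding genes was 33.5% and of the 12520 was 24.9%. At least 4 such peaks were found at Fosb and Maff, with 5 each, and at Junb, with 4, and at 1.03% of the 12520 genes. The member loci held a median of 1 other protein-coding gene against 2 for the 12520. With the 10000 entries of each list that had the highest −log10 q, 9 members kept a replicated peak in the locus (41.6% of all protein-coding genes and 37.8% of the 12520), Jun, Jund and Atf3 kept one at the start (23.8% and 20.6%) and 5 members kept one away from gene ends (12.2% and 8.67%).

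**Figure D2:**
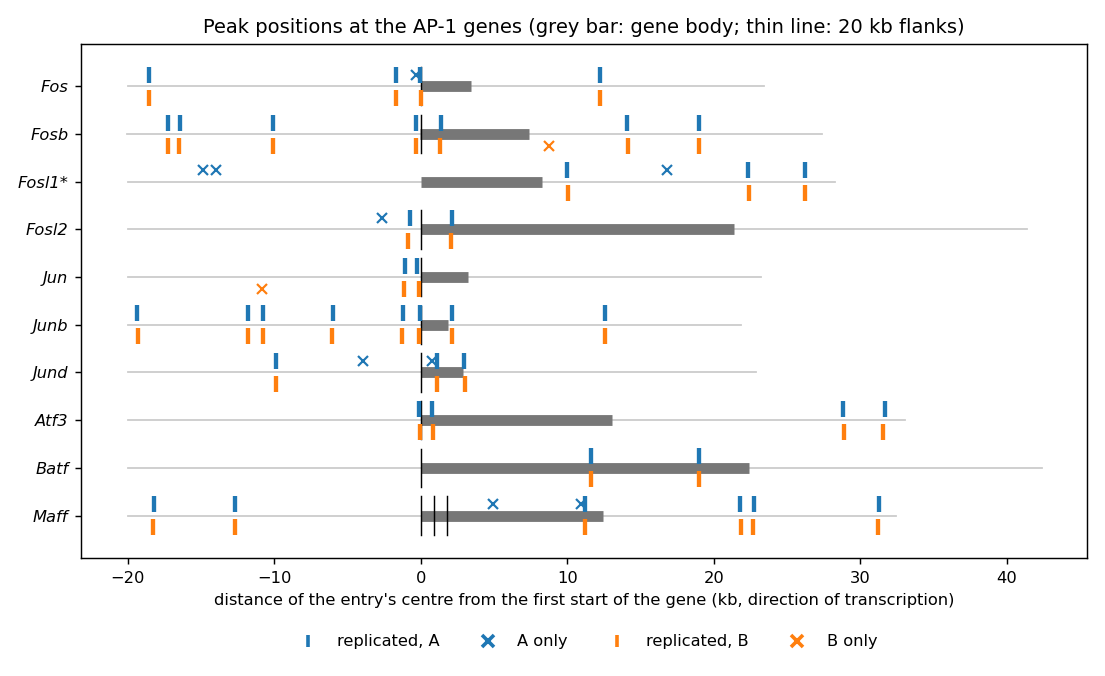
Each row is an AP-1 gene with its body (grey bar), its annotated starts (vertical black lines) and the centres of the entries of A (blue, above) and B (orange, below), by distance in kb from the first start in the direction of transcription; bars are replicated and crosses are in 1 list. Fosl1 (asterisk) has no annotated start here and is drawn from its lower boundary. Peaks stood at or near the starts of 7 genes, while none was replicated at the starts of Batf or Maff.

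Among the FOS genes, Fos (chr12:85473890-85477274) encodes the prototype FOS protein and had 4 replicated peaks. The peak that covers its start, chr12:85473762-85473933 in A, reached 7.22 in A and 8.17 in B in fold enrichment, and it holds 1 of the 2 TGACG matches shown above, 66 to 62 bases before the start, and the TATAAA match at 33 to 28 bases before it. Another entry ended 244 bp before the start and was found in A alone, with 9.03. Stronger peaks lay outside the gene. The highest in A was 18.2 kb upstream, inside the noncoding gene Gm38543, at chr12:85455065-85455642, with 20 in A and 15.7 in B. The highest in B, 12.1 kb downstream of the start, 8.69 kb past the gene end at chr12:85485960-85486281, had 15.3 in A and 17 in B. The peak 1585 bp upstream had 9.89 in A and 9.39 in B. Both distal peaks thus stood above the start peak in each replicate.

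Fosb (chr7:19302696-19310118), whose splice variant deltaFOSB is a long-lived repressor and activator in neurons, had 7 replicated peaks, 5 of them away from all gene ends. The peak nearest its start, 242 bp upstream at chr7:19310287-19310442, had 7.5 in A and 8.68 in B. It reached 9 bases into the 300-base promoter window in A and none in B, so the TGACG match at 60 to 56 bases before the start lay outside both entries. Inside the gene, 1206 bp past the start at chr7:19308529-19308839, a peak had 16.0 in A and 16.7 in B. Of 3 peaks upstream, the one at 9973 bp had 13.9 in A and 20.6 in B, the widest gap between the replicates in the direction of B (ratio of A to B 0.676), and those at 16321 and 17138 bp had 8.96 and 16.3 in A and 7.65 and 12.4 in B. Past the gene, a peak with 16.6 in A and 13.6 in B lay at an end of Rtn2, a reticulon gene, and another with 9.11 in A and 7.04 in B lay inside Rtn2. As at Fos, the highest peak of each replicate lay away from the start.

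Fosl2 (chr5:32136472-32157840), which encodes FRA2, had 2 replicated peaks. The one ending 577 bp before the start, chr5:32135611-32135895, had 9.92 in A and 7.66 in B, and the one 1976 bp past the start had 6.07 in A and 5.22 in B. The second ranked at percentile 4.92 of A and 0.854 of B, among the lowest fold enrichments of either list. No other protein-coding gene lay in this locus, and the next replicated peak was 71.4 kb from the gene. Fosl1 (chr19:5447698-5455938), which encodes FRA1, had no entry of either replicate in its body. Its 3 replicated peaks lay 1579 bp, 14.0 kb and 17.8 kb past its higher boundary, the nearest at an end of Ccdc85b, with 14.5 in A and 12.4 in B, and the farthest at an end of Efemp2, with 12.3 in A and 10.1 in B. The peak between these lay away from every protein-coding gene end, with 10.0 in A and 9.24 in B. All members but Fosl1 had a replicated peak in the body, as did 48.7% of all protein-coding genes and 37.5% of the 12520.

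Among the JUN genes, Jun (chr4:95049036-95052222) encodes the JUN protein that can bind DNA as a homodimer, and it had the broadest start peak of the members. That peak, chr4:95052150-95052808, was 659 bp wide in A and 514 bp in B, with fold enrichments of 14.3 (A) and 14.0 (B) and a −log10 q at percentile 95.9 of A and 98.8 of B. It covers the whole promoter window shown above in both replicates. TGACATCA, a known AP-1 site of the Jun promoter through which JUN and ATF2 act, lies 45 to 38 bases before the start. A CCAAT match lies 65 to 61 bases before the start. The other replicated peak, 990 bp upstream, had 6.81 in A and 6.87 in B. No further peak was replicated in the locus, and an entry of B alone stood 10757 bp upstream with 6.15. Jun was thus the most compact of the loci, with both of its peaks within 1 kb of the start.

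Junb (chr8:84976909-84978748), which encodes a JUN protein that often restrains JUN, is the shortest of the 10 genes at 1840 bp and had the most replicated peaks. The start peak, chr8:84978698-84978971, had 6.24 in A and 8.48 in B, and the peak 915 bp upstream, 627 bp wide in A, had 6.75 in A and 6.27 in B. The promoter window shown above was covered over 273 of its 300 bases in A and 291 in B, including the TGACG match at 106 to 102 bases before the start. At the other end of the gene, 165 bp past it, fold enrichment was 5.73 in A and 6.67 in B. The strongest peak of any member locus in A, chr8:84966007-84966354, lay 10.6 kb past Junb inside Rnaseh2a, which encodes a ribonuclease subunit, with 23.5 in A (percentile 98.3) and 16.2 in B (percentile 88.8). Upstream, a peak at 5874 bp had 4.99 in A and 6.50 in B. The 3 others lay at an end or in the body of Hook2, a gene of a microtubule linker protein, and of these the one 11666 bp from the Junb start was highest, with 11.3 in A and 15.4 in B. Every one of the 8 entries of A in the locus had a partner in B.

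Jund (chr8:70697739-70700616), whose product is a JUN protein widely present in resting cells, had 3 replicated peaks. Its strongest, chr8:70698658-70699020, began 919 bp past the annotated start and had 11.6 in A and 11.6 in B, and an entry of A alone with 4.47 preceded it at 660 bp. No entry of either replicate touched the 300-base promoter window of the annotated start. The peak at the gene's far end, also within 1 kb of an end of Iqcn, had 6.04 in A and 6.98 in B. The peak 9827 bp upstream, inside the noncoding gene Gm39191, had 7.43 in A and 7.52 in B. Across the 3 peaks A and B differed by less than 1.2-fold.

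Among the partners, Atf3 (chr1:191170296-191183333), which encodes a stress-induced factor that often represses, was open at its start. The peak chr1:191183284-191183612 covers all 300 bases of the window shown above in both replicates, with 13.6 in A and 10.9 in B, and holds TGACG on the opposite strand at 7 to 3 bases before the start. A peak 691 bp inside the gene had 8.67 in A and 5.84 in B. Past the gene, peaks 15.7 and 18.5 kb beyond its end had 8.63 and 6.03 in A and 11.3 and 6.03 in B, and at the farther site the entries overlapped by only 47 bp.

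Batf (chr12:85686720-85709087), which encodes a lymphoid and myeloid partner of JUN that lacks a transactivation domain, had no entry at its start in either replicate. Both of its replicated peaks lay inside the gene. The one 11452 bp from the start, chr12:85698172-85698529, was among the stronger peaks of both lists, with 19.1 in A (percentile 92.9) and 21.5 in B (percentile 98.4). The other, 18844 bp from the start, had 14.9 in A and 8.96 in B, the largest ratio of A to B in the 10 loci at 1.66.

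Maff (chr15:79346621-79359078) had 6 replicated peaks and none within 1 kb of its 3 annotated starts. Its TGACGTCA match, 29 to 22 bases before the second start and shown above, lay in no entry of either replicate. The peak inside the gene, 9253 bp past the third start, had 17.2 in A and 12.4 in B. The highest of the locus, chr15:79328193-79328574, lay 18.0 kb upstream at an end of Pla2g6, a phospholipase gene, with 20.9 in A (percentile 95.7) and 22.3 in B (percentile 98.9). Between them a peak 12644 bp upstream of the gene had 6.83 in A and 7.27 in B. Past the gene, 3 peaks in the body of Tmem184b, which encodes a membrane protein, had 6.31, 9.40 and 17.7 in A and 6.74, 7.89 and 16.7 in B.

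The start peaks of the AP-1 genes ranked low by fold enrichment. Over the 10 peaks within 1 kb of their own starts the median was 8.09 in A and 8.32 in B, at percentiles 28.4 and 34.9. Over all 7801 replicated peaks within 1 kb of an annotated start of a protein-coding gene, the median was 14.5 in A and 13.1 in B, at percentiles 79.3 and 76.4. None of the 10 stood in the top 20% of fold enrichment in A, against 49% of the 7801. In B the peak over the Jun start did, at percentile 81.1 (78.5 in A). By −log10 q the 10 peaks ranked higher, at a median percentile of 70.4 in A and 61.4 in B, where the 7801 stood at 79.2 and 76.8. The 4 that cover an annotated start, at Fos, Jun, Junb and Atf3, had a median fold enrichment of 10.4 in A, at percentile 46.5. For the 6215 such peaks of all protein-coding genes it was 15.4, at percentile 82.9. No test was made, since peaks of 1 gene share a neighbourhood and there is 1 group.

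**Figure D3:**
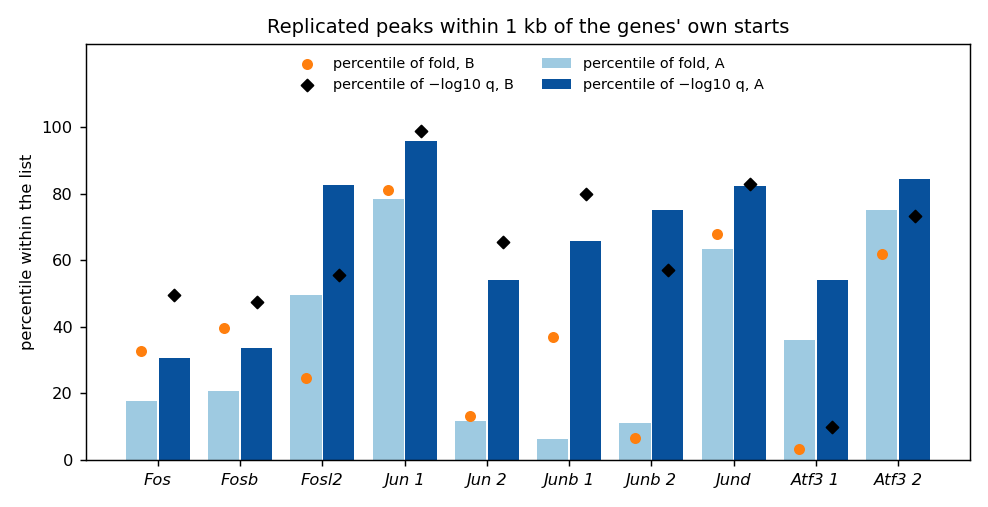
Bars give the percentile of fold enrichment (light) and of −log10 q (dark) in replicate A, and points those in replicate B, for the 10 replicated peaks within 1 kb of an AP-1 gene's own start; peaks of 1 gene are numbered along the chromosome. In A every peak ranked higher by −log10 q than by fold enrichment, with the widest gaps at Junb, where percentiles of fold enrichment were 6.18 and 11.0.

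Peaks inside the genes had higher medians than those at the starts. The 6 that overlap a member's own body away from its start, the one at the far end of Jund included, had a median of 15.4 in A and 10.7 in B, ranging over 6.04 to 19.1 in A and 5.22 to 21.5 in B. The 12 between protein-coding genes had a median of 9.43 in A and 9.32 in B. The medians of the whole lists, unreplicated entries included, were 9.97 in A and 9.56 in B. Over all replicated peaks away from gene ends the medians were 10.8 in A and 9.38 in B. The 41 replicated peaks of the members had medians of 9.89 in A and 8.96 in B, against 11.9 and 10.4 over all replicated peaks. Of all 41 replicated peaks, 7 stood in the top 20% of fold enrichment in both lists and 9 in the lowest 20% of both. Fold enrichment was higher in A at 22, higher in B at 18 and equal at 1, whereas over all overlapping pairs of the lists it was higher in A in 66.5%. The median ratio of A to B was 1.05 at the members and 1.11 over all pairs, and 1 of 41 differed by more than 1.5-fold against 16.8% of all pairs.

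**Figure D4:**
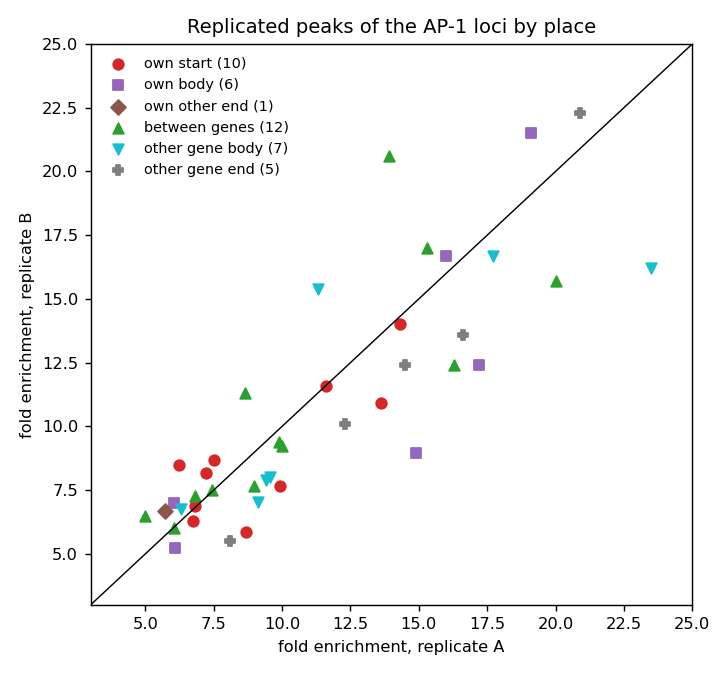
Each point is 1 of the 41 replicated peaks of the AP-1 loci, by fold enrichment in A (horizontal) and in B (vertical), marked by its place; the line marks equal values. The 10 start peaks (red circles) lie between 6.24 and 14.3 in A and between 5.84 and 14.0 in B.

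Promoter sequence was at hand for 9 members. At Fos, Jun, Junb and Atf3 a match to the core or variant of the CRE lay inside entries of both replicates, and at Fosb, Batf and Maff every such match lay outside them. Entries covered 9 bases of the Fosb window in A, none in B, and no base of the Batf and Maff windows. The split thus follows how far the windows were covered and says nothing about the matches themselves. The core TGACG was present in a window of 6 of the 9 (Fos, Fosb, Junb, Atf3, Batf and Maff), against 26.2% of the 17492 protein-coding genes with an annotated start. By window, the core was in 23.6% of 21263, in 36.8% of the 7943 that a replicated peak touched and in 15.7% of the 13320 it did not. TGACGTCA, which contains the core on both strands, was found at Maff alone and at 2.54% of those genes (2.23% of windows), and TGACATCA at Jun and Maff and at 4.3% (3.66%). The AP-1 letters TGACTCA were in none of the 9 members' windows, against 5.4% of genes (4.66% of windows). TATAAA stood at Fos and Junb (14.8% of genes, 12.6% of windows), and CCAAT at Jun, Junb and Atf3 (42.3% and 38.2%). The TATAAA match at Junb runs from the annotated start base to 5 bases past it, whereas that at Fos lies 33 to 28 bases before the start. GGGCGG stood at 7 members (49.2% and 46.2%), and the CArG box at 0 (1.76% and 1.52%). All these counts and shares are of matches inside the promoter windows. Sequence farther upstream was not searched, so a count of 0 does not show that a promoter lacks the CArG box. GC content ran along with openness, with a median of 62.3% in windows that a replicated peak touched and 51.7% in the others, and its part in these shares was not tested. Maff has 3 windows, and the other members 1 each. A match is a string of letters and not a site shown to be bound.

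Further bZIP genes and upstream genes of the pathway were open at their starts in most cases. Of all protein-coding genes, 64.6% had a replicated peak in the locus, 43.1% one at the start and 33.5% one away from gene ends. Of 25 further bZIP genes, all had a replicated peak in the locus, with a median of 2, and 22 had one at the start or, for the 7 with no annotated start here, at either end. Away from gene ends, 9 of 10 members had a peak, against 13 of these 25. The leading genes were Bach2, a repressor that pairs with small MAF proteins, with 6 replicated peaks, and Atf7, Creb1 and Cebpd with 4 each. Of 25 upstream genes, most of them of kinases, their phosphatases and the ternary complex, 24 (96%) had a replicated peak. At the start 22 (88%) had one, at either end for 3 of these, and 11 (44%) had one away from gene ends. Dusp10, Map2k6 and Map2k3, a phosphatase and 2 kinases of the stress pathway, had 5 each and Elk1 and Elk3 had 4, while Mapk10, which encodes a neuronal JNK, had none.

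Of 20 genes known as AP-1 targets, 13 had a replicated peak in the locus, with a median of 2, and 9 had one at the start or end. These are 65% and 45%, close to the 64.6% and 43.1% of all protein-coding genes. Away from gene ends 12 had one (60%), against 33.5% of all protein-coding genes and 24.9% of the 12520. Tgfb1, the gene of the main fibrogenic cytokine, had 7 replicated peaks in the locus, the collagen gene Col1a2 4 and Hmox1, Spp1 and Vim 3 each. Plaur and Mmp3 had no entry in either replicate. All 17 early genes of other families had a replicated peak, with a median of 3, and 13 had one at the start or end. Peaks away from gene ends were found at 9 of 10 AP-1 members and at 15 of 17 of these genes, against 33.5% of all protein-coding genes. Zfp36 had 7, Nr4a1 6 and Btg2, Ier3 and Zfp36l2 5 each. By fold enrichment, the 10 start peaks of the AP-1 members had a median of 8.09 in A and 8.32 in B, against 12.6 in A and 11.8 in B for the 11 start peaks of these early genes. The 10 start peaks of the stellate markers were nearest to the members, with 9.62 in A and 9.6 in B, at percentiles 46.7 and 48.8. The 5 of the AP-1 targets had 11.3 in A and 12.2 in B, the 16 of the bZIP genes 15.4 in A and 13.8 in B, and the 20 of the upstream genes 16.2 in A and 13.6 in B. Differences between lists were not tested, and the lists differ in gene length, with medians of 7832 bp for the members, 5021 bp for the early genes, 10530 bp for the bZIP genes, 41256 bp for the upstream genes and 10027 bp for the targets.

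**Figure D5:**
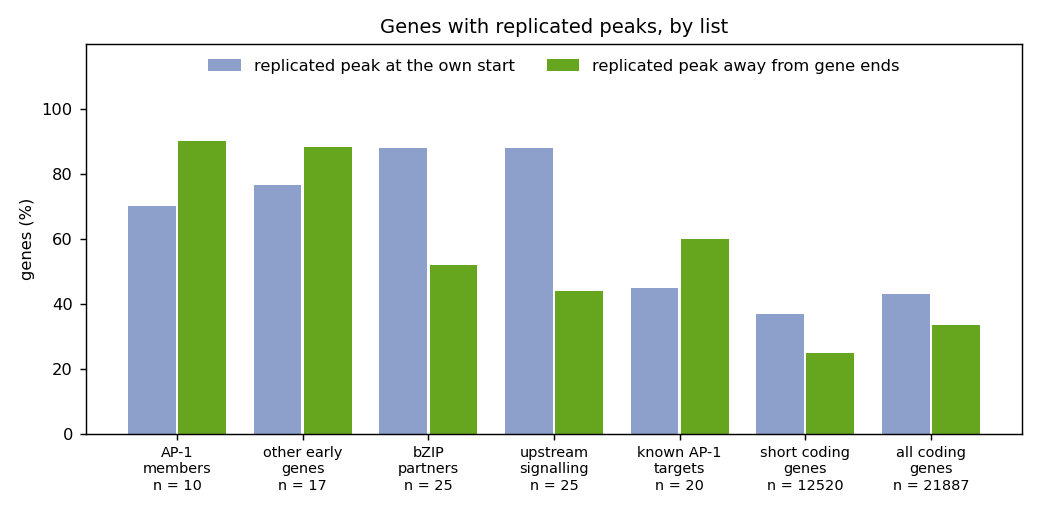
Bars give the share of genes with a replicated peak within 1 kb of their own start (blue; either end where no start is annotated here) and with one over 1 kb from every protein-coding gene end in the locus (green), with n the number of genes and short coding genes those no longer than 22368 bp. AP-1 members stood at 70% and 90%, and all protein-coding genes at 43.1% and 33.5%.

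Beyond the limit of 20 kb, the nearest replicated peaks were 22.5 kb from Fosl1, with 14.3 in A and 11.6 in B, 22.7 kb from Fosb, with 17.2 in A and 13.5 in B, and 24.3 kb from Jund, with 23.1 in A and 20.8 in B. The outermost within it was 19.3 kb from Junb, with 9.55 in A and 8 in B. At Jun, Fos and Batf the next replicated peaks beyond the limit were 30.2, 55.3 and 36.7 kb away.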

How the data were processed

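ATAC-seq peaks of 2 replicates of 1 group were analysed. The authors deposited 1 peak list per library with no header line, with a fold enrichment (a ratio on a linear scale), −log10 p, −log10 q, a score and a summit offset per peak. The deposited score follows the −log10 q, as 10 times its value without decimals, in 99.88% of A and 99.99% of B. Per the submitters' processing notes, MACS2, HOMER, STAR 2.7.0, Picard, SAMtools and bedtools were used, with build mm10. For their roles, the cleaning of the lists and any shift for the Tn5 offset, nothing is stated in the sources used here. The lists are not scaled to each other.

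Peaks were intersected with RefSeq gene spans of GRCm38.p6 with Python 3.11.15, numpy 2.4.6 and pandas 2.3.3, and drawn with matplotlib 3.10.9. Coordinates are 1-based, and the entry of A places a replicated peak. Starts came from RefSeq promoter windows, known for 17492 of the 21887 genes and 9 of the 10 members, and either gene end was used for the others. Intervals are 95% Wilson intervals (scipy 1.17.1). On simulated lists, 70.1% of 36577 entries were found shared where 70% were made so. The shared entries were slightly shifted copies that had to overlap, so this checks the overlap step alone. With 2 samples of 1 group no test between conditions was possible. In each list of other genes, up to 4 with the most replicated peaks and up to 2 with none are named, as are genes whose ends hold a member's peak. Genes tied with the last one named were added after their values were seen. A gene that this rule takes is not reported here. Members and lists were chosen with earlier results of these data known. Alternatives were stricter lists, overlap, flanks, windows, each replicate alone and the entry of B for placement.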

Additional observations from a re-analysis of the deposited data

How the results depend on the processing

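Strength and distance limits moved the totals most. With the 10000 entries of each list with the highest −log10 q, the 10 loci held 14 replicated peaks in place of 41, with a median of 1 per locus, and 9 members had any. Peaks at the start then remained at 3 members, Jun, Jund and Atf3 (20.6% of the 12520 genes no longer than Batf), and peaks away from gene ends at 5 (8.67%). With 5 kb on either side there were 19 peaks, a median of 2, and 5 members with a peak away from gene ends. In the bodies alone there were 12, a median of 1, and 4 members, and with 50 kb there were 66 and a median of 6.5. Start windows of 500 and 2500 bp gave 5 and 8 members, and either gene end gave 7. The member gained at 2500 bp was Fosl1, which has no annotated start here. It was counted by the peak 1579 bp past its higher boundary. Limits of 500 and 2500 bp at gene ends gave 10 and 7 members with a peak away from them. For the member counts at these flanks and windows, shares of all protein-coding genes at the same setting were not computed. The replicated share was 95.3% from the side of B. TGANTCA was found in 0 of the 9 members' promoter windows, where TGACTCA, TGACGTCA or TGACATCA was found in 2. The first peak upstream at Jun lies within 1 kb of the start by the entry of A and not by that of B, so that placement by B gave 10 members with a peak away from gene ends. Without replicate A or B, all entries of the other list gave 43 to 50 peaks in the loci, a median of 3.5 to 5, 7 to 7 members at the start, 9 to 10 away from gene ends and 25 to 25 bZIP genes. The counts of 58 of 90 single member values stayed within 1.5 times. Start peaks that cover the start itself, an alternative chosen after seeing the data, had a median fold enrichment of 10.4 in A. No paired analysis was possible because there is 1 group. The lists hold no read counts, so what depth limits cannot be stated.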
